A study of Rattus norvegicus with 15 samples.

Results

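The gastrocnemius muscle of rats that had eaten a low-protein diet early in life was compared with that of rats kept on a normal diet, 8 weeks after both had been put on the normal diet. The comparison used 7 of the 15 arrays of the series, namely those whose titles place them at 3 months: 4 from the rebound group after restriction (LP-R) and 3 from the rebound control group (CN-R). All 7 rats were male Wistar rats bought at 3.5 weeks of age. By the titles, which number biological replicates, each array is taken to hold the RNA of 1 rat. The methods instead name 4 individuals for the arrays, 1 from each treatment group. Which of these holds cannot be told from the arrays. CN-R rats ate 15% casein throughout, and LP-R rats ate 8% casein for 4 weeks and then 15% casein until day 84. The sample labels differ from the methods on the second diet, as they have each rat keep its earlier one. The diets of the methods are used here, and which account holds cannot be told from the arrays. Every rat was fasted for 16 h before sampling, so fed muscle was not measured. CN-R replicate 4 is a control by its title and description but a restricted rat by its treatment field. It was kept in CN-R, and the effect of counting it as LP-R is given with the calls. No CN-R replicate 3 is among the 15 samples of the series. The comparison asks which genes differ in muscle long after the restriction has ended.

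The gastrocnemius is a calf muscle made mostly of fast fibers, with slow fibers in its deep part. Slow fibers carry their own set of myosin, troponin and calcium-handling proteins and burn fuel aerobically, whereas fast fibers rely more on glycogen and glycolysis. Dietary protein in early life sets the pace of muscle growth, through amino acids, insulin and insulin-like growth factor. Adult muscle adjusts its transcription to contraction, adrenergic signals, glucocorticoids and fasting, and many of the genes that answer these signals do so quickly and transiently.

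The values are log2 signals of 31042 probe sets, ranging from 5.38 to 14.16. They were summarized with FARMS, which pulls a probe set to a fixed level where its single probes do not change in step, and 27942 probe sets had an SD of at most 0.01 over the 7 arrays. The other 3100 are called varying here. The tissue label was borne out by the alpha-actinin of fast fibers, Actn3, with a log2 signal of 13.58 to 13.71. Pearson's r between 2 arrays was 0.9972 to 0.999 across all probe sets, which are not independent replicates. No pair of arrays was identical. Over the varying probe sets, the first principal component held 39.7% of the variance and set LP-R replicates 1 and 2 (loadings -0.50 and -0.36) apart from LP-R replicates 3 and 4 (0.45 and 0.60), with the CN-R arrays between -0.21 and 0.12. The second held 21.4% and set CN-R replicate 1 (0.88) apart from all others (-0.26 to 0.06). Neither component separated LP-R from CN-R. LP-R replicate 4 had the lowest of the 7 values in 602 of the 1755 genes that vary. The 5′ control probe set of Gapdh, a sign of RNA integrity, read 13.61, 13.61 and 13.62 in CN-R and 13.52, 13.56, 13.67 and 13.66 in LP-R replicates 1 to 4, while its 3′ probe set read 13.65 in all. By this Gapdh probe set the LP-R arrays thus fell into the same 2 pairs as on the first component. The control probe set for the middle of beta-actin did not give these pairs, at 10.53, 10.75, 10.77 and 10.63 in LP-R replicates 1 to 4. Its 5′ probe set read 11.88 in all 7 arrays. The part of RNA quality in the pairs was not tested.

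The largest difference between LP-R and CN-R was that of Selenbp1, a selenium-binding protein that oxidizes methanethiol. Its log2 signal was 8.81, 9.11 and 9.31 in CN-R replicates 1, 2 and 4, against 7.99, 7.87, 7.87 and 7.85 in LP-R replicates 1 to 4. The groups did not overlap, and the 4 LP-R arrays lay close together. The mean of LP-R was 2.27-fold lower, a change of −1.18 on the log2 scale (SE 0.12). Fbp2, the fructose-1,6-bisphosphatase of muscle, which works against glycolysis and serves glycogen synthesis from lactate, was the gene of largest change in the other direction. It read 9.27, 9.82 and 9.86 in CN-R and 11.01, 11.02, 9.86 and 11.32 in LP-R. All LP-R arrays but replicate 3 were above every control, and replicate 3 was level with the highest control. The difference was 1.15 (SE 0.40), or 2.22-fold.

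Rank products, which multiplies the rank of each probe set's difference over all 12 pairs of an LP-R and a CN-R array, was the main test. Calls were made where the pfp, the share of false positives expected among calls, was at most 0.05. It called 64 probe sets higher (0.206% of those tested) and 139 lower (0.448%) in LP-R. They gave 32 genes called higher (0.225% of 14217 genes on the array) and 97 called lower (0.682%). Of the 2082 genes with at least 1 varying probe set, these are 1.54% and 4.66%. These shares are the background for the counts of calls in each gene list described below. A single probe set, of the giant sarcomere protein nebulin (Neb), was called in both directions: it read 8.60, 7.76 and 8.42 in CN-R and 6.66, 7.33, 9.51 and 9.68 in LP-R. The split between higher and lower depended on how the permutations were made. The main test permuted values centred on each probe set's mean, and with uncentred values 107 were called higher and 52 lower. Most changes were small: the median size over the 202 called probe sets was 0.296, and 13 of them passed 1.5-fold.

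The method takes all probe sets to vary alike, whereas the SD over the 7 arrays had a median of 0.10 among varying probe sets and of 1.1e-05 among all, and 149 of the 202 called probe sets were among the 500 most variable of the array. limma, which sets each difference against that probe set's own spread, called 0 of 31042 probe sets (0.0%; smallest Benjamini-Hochberg adjusted p 0.539). By limma 1566 probe sets had an unadjusted p under 0.05, against 1552 for a uniform p, and among the varying ones 113 against 155. "Called" below therefore means called by rank products alone. Among varying probe sets, LP-R and CN-R did not overlap for 16 that were higher in LP-R (0.516% of 3100) and 103 that were lower (3.32%). For an unchanged probe set, chance alone places LP-R wholly below CN-R in 1 of 35 splits of the arrays, and wholly above in 1. Each share is 0.0286, so lack of overlap alone does not mark a gene as changed. Of the called probe sets, 51 (25.2%) did not overlap.

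**Figure D1:**
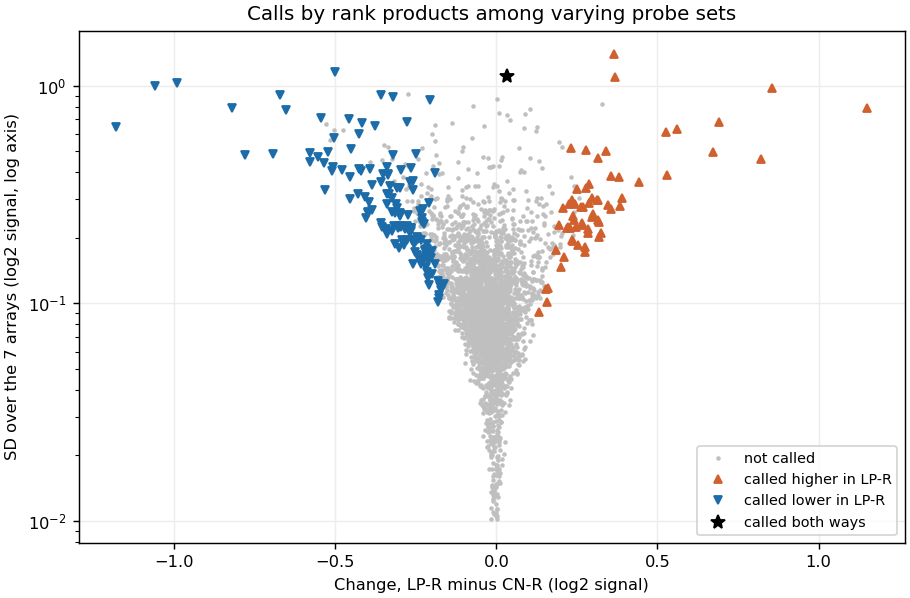
Change between LP-R and CN-R (horizontal axis, log2 signal) against the SD over the 7 arrays (vertical axis, log scale), 1 point for each of the 3100 varying probe sets. The 64 probe sets called higher and the 139 called lower lie on the outer edges and toward the top, with SDs of 0.091 or more, and 1 probe set near a change of 0 was called both ways.

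Without 1 array in turn, 7 to 143 probe sets were called lower and 16 to 70 higher, and leaving out any CN-R array cut the lower calls to at most 12. Only 7 of the 202 calls held without each of the 7 arrays, 5 of them higher and 2 lower. Of these, 4 carry a gene symbol: Selenbp1, Fbp2, Cish and Slc25a30. Cish, an inhibitor of cytokine signals through STAT5, such as that of growth hormone, read 7.44, 6.99 and 6.99 in CN-R and 8.65, 8.25, 7.49 and 6.91 in LP-R, so that replicates 1 to 3 were above the controls and replicate 4 was below them. Its difference was 0.69 (SE 0.46). Slc25a30, a mitochondrial carrier, read 7.93, 7.82 and 8.28 in CN-R and 8.21, 8.94, 8.64 and 8.37 in LP-R, where replicate 1 fell within the range of the controls. Its difference was 0.53 (SE 0.22). The other 3 probe sets have no gene name in the tables used here. Among them, 1391262_at read 6.44 to 6.52 in CN-R and 7.09 to 7.53 in LP-R, a difference of 0.82, and 1395200_at read 8.15 to 8.51 in CN-R and 7.41 to 8.05 in LP-R, a difference of −0.78. With CN-R replicate 4 counted as a restricted rat, 35 of the 202 calls held and 167 were lost. Selenbp1, Fbp2 and Slc25a30 stayed called and Cish did not.

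**Figure D2:**
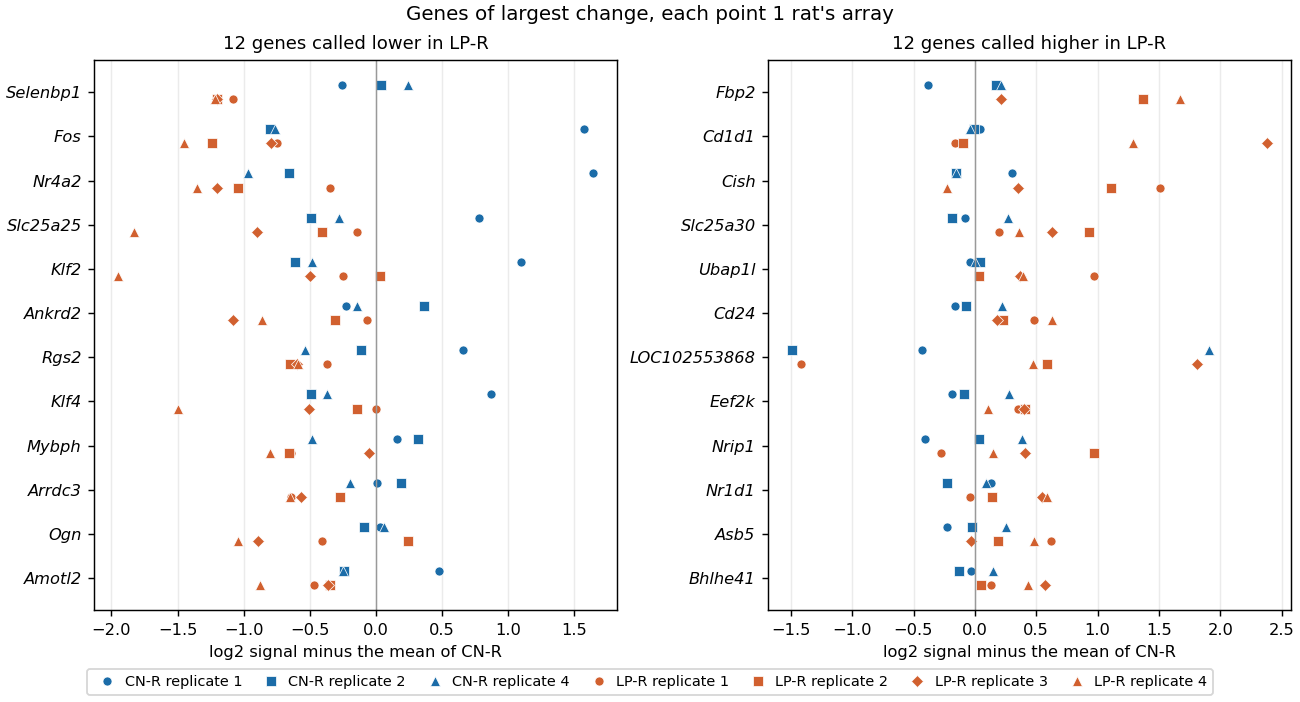
The 12 genes of largest change called lower (left) and called higher (right) in LP-R. Each point is 1 rat's log2 signal minus the mean of the 3 CN-R arrays (horizontal axis). The groups do not overlap in Selenbp1, whereas the points of Fos, Nr4a2, Klf2 and Klf4 show 1 control array, CN-R replicate 1, far to the right of all others.

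Among the other genes of largest change, several rested on 1 or 2 rats. Cd1d1, which presents lipids to T cells, was called higher at 8.69 and 7.60 in LP-R replicates 3 and 4, while LP-R replicates 1 and 2 read 6.15 and 6.21 and the controls 6.27 to 6.35. The uncharacterized LOC102553868 was called higher with a difference of 0.36 (SE 1.11), although its signal ran from 6.23 to 9.63 in CN-R and from 6.30 to 9.53 in LP-R. Ogn, a small proteoglycan of the matrix, was called lower by the probe set 1385248_a_at (−0.52, SE 0.33) and higher by 1376749_at (0.29, SE 0.26) and 1383263_at (0.24, SE 0.22), so its direction is not settled. Steadier differences were found for Cd24, a surface glycoprotein, which read 10.35, 10.44 and 10.73 in CN-R and 10.69 to 11.14 in LP-R, and for Eef2k, the kinase that slows translation elongation, at 6.88, 6.98 and 7.35 against 7.18 to 7.48. Both overlapped the controls by 1 array. Asb5, a substrate adaptor of ubiquitin ligases that is found in muscle satellite cells, was called higher by 0.31 (SE 0.20), and the nuclear receptor corepressor Nrip1 by 0.32 (SE 0.35).

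Several genes called lower showed no overlap between the groups. Arrdc3, an arrestin-domain protein that promotes the loss of beta-adrenergic receptors, read 8.71, 8.89 and 8.5 in CN-R and 8.06, 8.43, 8.13 and 8.05 in LP-R, a change of −0.53 (SE 0.14). Its second probe set did not overlap either, at 7.54 to 7.74 against 7.24 to 7.41. Cdkn1a, the cell cycle inhibitor p21, read 6.79, 6.92 and 6.81 in CN-R and 6.45 to 6.64 in LP-R by the called probe set, though its brighter probe set overlapped and was not called (−0.17, SE 0.17). Cfd, the adipocyte protease adipsin, read 7.88 to 8.12 in CN-R and 7.52 to 7.75 in LP-R. Id3, an inhibitor of basic helix-loop-helix factors that responds to BMP, read 8.16 to 8.5 in CN-R and 7.74 to 8.13 in LP-R. Amotl2, an angiomotin of the Hippo pathway, read 7.72 to 8.45 against 7.09 to 7.62, with 2 of the 3 controls just above the highest LP-R array. Tmem100, an endothelial protein downstream of BMP, overlapped slightly, at 7.76 to 8.56 against 7.20 to 7.77. Its change of −0.51 rested on CN-R replicate 4: it was −0.24 and not called without that array, and −0.04 with it counted as restricted. Mybph, a myosin-binding protein, read 9.72, 9.88 and 9.08 in CN-R and 8.92, 8.90, 9.51 and 8.76 in LP-R. Rgs2, which restrains G protein signals, read 9.52, 8.75 and 8.32 against 8.21 to 8.49. With CN-R replicate 4 counted as restricted, Arrdc3, Mybph and Rgs2 stayed called, and Cdkn1a, Cfd, Id3 and Amotl2 did not.

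For 3 rats against 4 the exact permutation test over the 35 ways to choose the 3 controls cannot give a p below 0.0286, unadjusted. Selenbp1, Cdkn1a, Cfd, Pde4b, Maf and Amotl2 reached that value in a two-sided test. So did others named below, among them Klf10, Jund, Cryab, Pde4d, S100a6, Ube2s and Zfp106. That value is also the share of unchanged probe sets expected to reach it. These genes were named for their change, their list or their p in limma, so these p-values are a description. None passed limma after adjustment over all probe sets.

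Of the 16 genes of slow fibers that were measured, 7 were called lower and 0 higher, and all 13 that vary had a lower mean, with a median change of −0.18. The median over all 1755 varying genes was −0.02, and 1179 of these had a lower mean. Among all genes, 0.682% were called lower and 0.225% higher. Myh7, the slow myosin heavy chain, had one probe set at 10.52, 10.67 and 10.24 in CN-R and 9.61, 10.46, 10.21 and 10.08 in LP-R, which was called lower (−0.39, SE 0.23), and a brighter one that was not called (−0.14). Tnni1, slow troponin I, read 12.25, 12.16 and 11.93 in CN-R and 11.76, 12.09, 11.88 and 11.61 in LP-R. LP-R replicate 2 lay among the controls and the other restricted rats below them. Myl2, the slow regulatory light chain, read 12.37, 12.56 and 12.21 against 11.92, 12.33, 12.05 and 12.14, with the same rat among the controls. Casq2, the calsequestrin of slow and cardiac muscle, had 2 probe sets, both called lower, and one of them did not overlap, at 8.05 to 8.07 in CN-R and 7.76 to 7.95 in LP-R. Ankrd2, a stretch-responsive ankyrin protein of slow fibers, had the largest change of the list, at 9.78, 10.37 and 9.87 in CN-R and 9.94, 9.70, 8.93 and 9.15 in LP-R. The tropomyosin Tpm3 (−0.28, SE 0.10) and Sln, the sarcolipin that inhibits the calcium pump (−0.30, SE 0.31), were the other members called. The call of Tpm3 rests on 1 of its 12 probe sets, and its most variable probe set changed by 0.19 in the other direction.

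Tnnc1, Tnnt1, Myl3 and Myoz2 had mean changes of −0.18, −0.15, −0.14 and −0.17 and were not called. Csrp3 and the slow calcium pump Atp2a2 were nearest to no change, at −0.04 and −0.02. In Myl2, Myl3, Tnni1, Tnnt1, Tnnc1, Tpm3 and Casq2, LP-R replicates 1, 3 and 4 were below all controls and replicate 2 was not. The lowest array was LP-R replicate 3 for 5 of the 13 varying members and LP-R replicate 4 for 6, whereas the highest was CN-R replicate 2 for 6 and LP-R replicate 2 for 4. The list's median ran from −0.26 to −0.12 when 1 array was left out. Its calls were less steady: 1 member was called lower without CN-R replicate 1, 0 without CN-R replicate 2 and 0 without CN-R replicate 4, where few calls were made at all. Without LP-R replicates 1 to 4 in turn, 3, 10, 3 and 4 members were called lower, and 1 was called higher without replicate 1 and without replicate 2. With CN-R replicate 4 counted as restricted the median was −0.24. In whole muscle, fewer slow fibers and less of these transcripts in each fiber cannot be told apart.

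Of the 19 fast-fiber genes measured, 2 were called higher and 0 lower, and the 7 that vary had a median change of −0.01. The calls came from secondary probe sets of Myh1, the myosin of type IIX fibers (11.01 to 11.15 in CN-R and 11.15 to 11.38 in LP-R), and of Tpm1 (9.23 to 9.40 against 9.38 to 9.78), while the brightest probe sets of both were constant. LP-R replicate 3 was the highest array for 6 of the 7 varying members and LP-R replicate 1 the lowest for 5. Pvalb, the calcium buffer of fast fibers, read 12.84 to 13.09 in CN-R and 12.62, 12.74, 13.19 and 12.99 in LP-R.

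**Figure D3:**
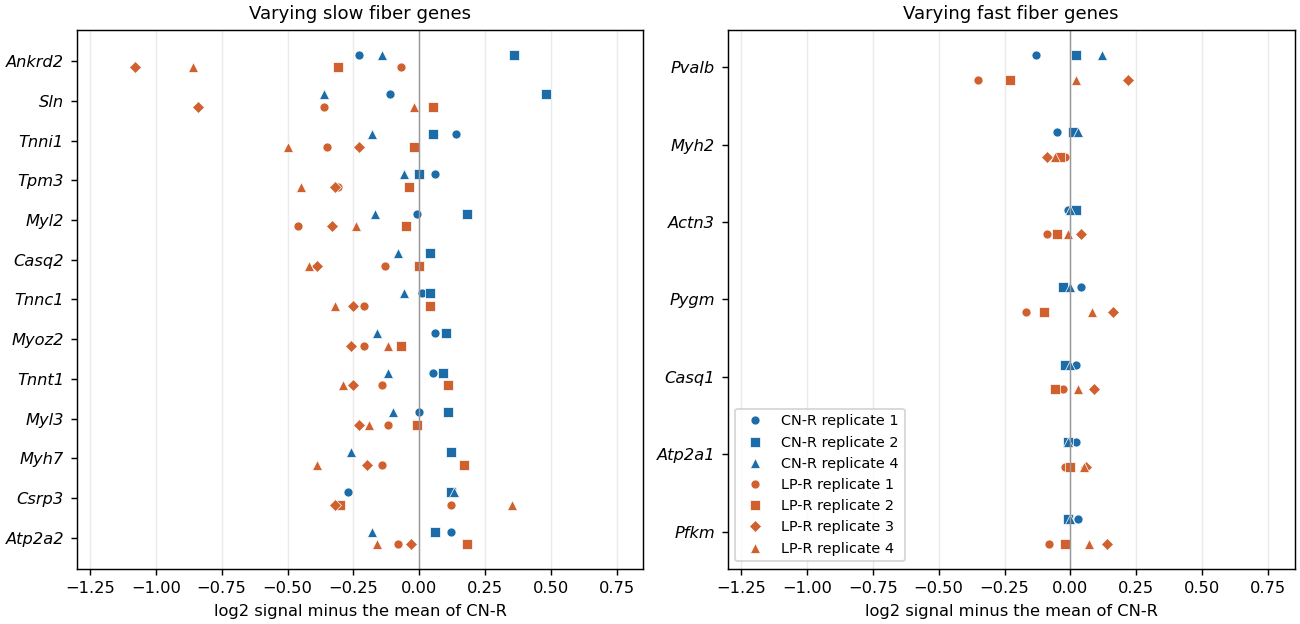
Varying slow fiber genes (left, 13) and fast fiber genes (right, 7), each by its probe set of highest mean signal. Each point is 1 rat's log2 signal minus the CN-R mean (horizontal axis, the same scale in both panels). In 7 slow fiber genes, Tnni1 among them, LP-R replicates 1, 3 and 4 lie left of all controls and replicate 2 does not, whereas in the fast fiber genes LP-R points lie on both sides of the controls, from 12.62 to 13.19 in log2 signal for Pvalb, the most spread.

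Immediate early genes, transcription factors and regulators that are induced within minutes of contraction, stress or hormones, included some of the largest changes. Of 29 measured, 9 were called lower and 2 higher, against 0.682% and 0.225% of all genes. A lower mean in LP-R was found for 22 of the 24 that vary, and for 1179 of all 1755 varying genes. The median of the varying members was −0.24. The controls were not alike, however. CN-R replicate 1 was the highest of the 7 arrays for 18 of the 24. Fos, a subunit of the AP-1 factor, read 11.04 in CN-R replicate 1, 8.67 and 8.71 in the other controls and 8.02 to 8.72 in LP-R. Klf2 read 10.38 in CN-R replicate 1, 8.67 and 8.80 in the other controls and 7.33 to 9.31 in LP-R. Klf4, a factor of the same family, read 9.80, 8.44 and 8.56 in CN-R and 8.93, 8.79, 8.42 and 7.43 in LP-R. Without CN-R replicate 1 the list's median change was −0.06 and 0 members were called lower, and the change of Fos was −0.28. Calls were also lost without CN-R replicate 2 or 4, where 1 member was called lower each time. The median was then −0.25 or −0.36. LP-R replicate 4 was the lowest array for 16 of the 24, and without it the median was −0.15.

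In Klf10 and Jund the groups did not overlap. Klf10, which is induced by TGF-beta, read 9.98, 9.40 and 9.72 in CN-R and 9.24 to 9.35 in LP-R, and its call was lost with CN-R replicate 4 counted as restricted. Jund, the AP-1 subunit that is present in resting cells, was called higher, at 9.84, 9.58 and 9.73 against 9.84 to 9.93, where the groups meet only by rounding. Ccn1, a secreted matrix protein, was also called higher, since CN-R replicates 2 and 4 read 6.77 and 6.82 and all LP-R arrays 7.34 to 7.70, although CN-R replicate 1 read 8.19. Counting CN-R replicate 4 as restricted turned its difference to −0.08. Dusp1, a phosphatase that ends MAP kinase signals, was called lower by both probe sets, and Atf3, Ier5, Jun and Gadd45g by at least 1 each.

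The Nr4a nuclear receptors, which answer adrenergic signals and exercise in muscle and were a subject of the study, were called lower in 2 of 3 cases. Those called, Nr4a1 and Nr4a2, are on the list that the study drew from these arrays, so this count is not independent evidence. Nr4a2 read 9.43 in CN-R replicate 1, 7.13 and 6.82 in the other controls and 6.44 to 7.44 in LP-R. Nr4a1 was spread widely in both groups, at 10.55, 9.98 and 9.30 in CN-R and 9.90, 9.68, 9.37 and 9.01 in LP-R. Nr4a3, at 8.87, 9.30 and 7.89 against 8.39 to 8.98, was not called. Without CN-R replicate 1 the difference of Nr4a2 was −0.17 and its call was lost.

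**Figure D4:**
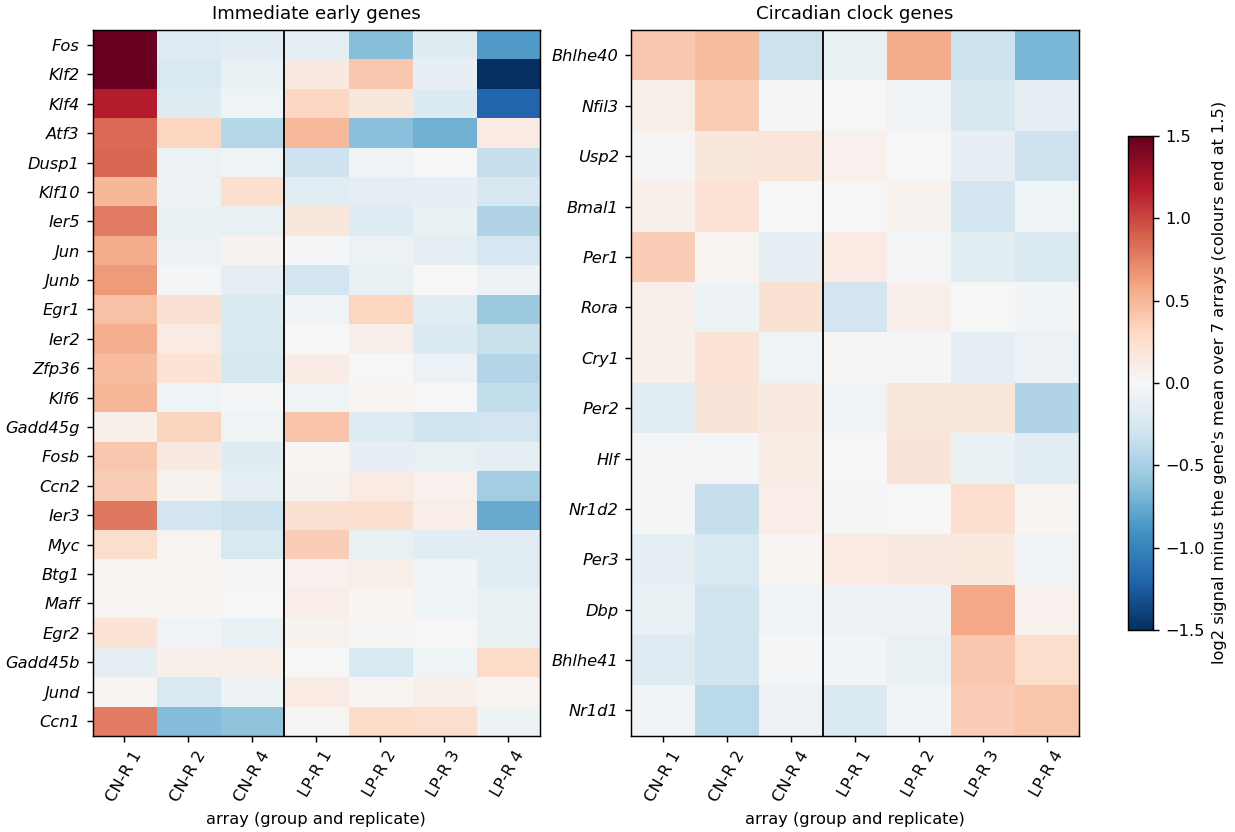
Log2 signal minus the gene's mean over the 7 arrays (colour, red above and blue below, colours end at 1.5) for 24 varying immediate early genes (left) and 14 varying clock genes (right). Columns are the 3 CN-R and 4 LP-R arrays, and rows are ordered by the change between the groups. CN-R replicate 1 is the reddest column on the left for 18 genes, and on the right Nr1d1, Bhlhe41 and Dbp are reddest in LP-R replicates 3 and 4.

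Of 21 genes of cAMP and beta-adrenergic signalling, 4 were called lower, 0 higher and 17 neither. The 10 that vary all had a lower mean, with a median of −0.13 that ran from −0.15 to −0.11 without 1 array. The brightest probe sets of the others were nearly constant. Across all genes, 0.682% were called lower, and 1179 of the 1755 that vary had a lower mean. Of the 4 called, Pde4b, Crem and Slc25a25 are also on the list that the study drew from these arrays. The count of calls is therefore not independent evidence. Pde4b, a phosphodiesterase that breaks down cAMP, read 8.83, 8.74 and 8.84 in CN-R and 8.44, 8.57, 8.57 and 8.22 in LP-R. The groups did not overlap. Its other probe set, at 7.34 to 7.77 against 6.83 to 7.41, was called too but overlapped. The call of Pde4b was lost with CN-R replicate 4 counted as restricted. Pde4d, of the same family, was not called but had the smallest p among varying probe sets in limma: it read 10.27 in all controls and 10.18 to 10.21 in LP-R (−0.08, SE 0.007, adjusted p 0.539, and 0.0049 without LP-R replicate 3). Crem, a cAMP-responsive modulator, had 3 of 6 probe sets called lower. Its brightest read 9.67, 9.74 and 10.18 in CN-R and 9.47, 9.56, 9.63 and 9.88 in LP-R, and the difference was 0.04 with CN-R replicate 4 counted as restricted. The probe set 1396545_at did not overlap, at 7.61 to 7.91 against 7.21 to 7.44. Pkia, an inhibitor of protein kinase A, was called lower by 2 of 3 probe sets, one of them at 11.38 to 11.64 against 11.20 to 11.46, where the change of −0.21 was −0.08 with CN-R replicate 4 counted as restricted. Slc25a25, a calcium-dependent carrier of adenine nucleotides in mitochondria, read 9.93, 8.66 and 8.87 in CN-R and 9.01, 8.74, 8.25 and 7.32 in LP-R, and its change of −0.82 was −0.43 without CN-R replicate 1. Ppargc1a, the coactivator of mitochondrial biogenesis, overlapped widely at 7.94 to 8.87 against 8.06 to 8.5. Without CN-R replicates 1, 2 and 4 in turn, 1, 1 and 0 members of the list were called lower.

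The promoters of called genes were searched, from 250 bases before to 50 after the gene's start, for letters that factors of these pathways bind: the cAMP response element TGACGTCA, the E-box CACGTG bound by clock proteins, the Nr4a element AAAGGTCA and the glucocorticoid receptor motif TGTTCT, on either strand. RefSeq sequence on GRCr8 was at hand for 76 of 97 genes called lower, 28 of 32 called higher and 11700 of 14217 genes of the array. TGACGTCA was found in 5 of 76 genes called lower (6.58%), 1 of 28 called higher (3.57%) and 2.85% of all. CACGTG was found in 7.89% and 7.14%, against 8.94% of all. AAAGGTCA was found in 1.32% and 3.57%, against 1.05%, and TGTTCT in 13.2% and 14.3%, against 13.4%. A match is a run of letters and not a proven site. The stretches around TGACGTCA in 3 genes described above are shown, 5′ to 3′ on the gene's strand with matched letters in capitals, since they show how near to each gene's start the element lies. They cover chr10:17184704-17184776 (Dusp1, plus strand, which also holds an E-box), chr3:36116707-36116764 (Slc25a25, minus strand) and chr16:18769960-18770017 (Jund, minus strand), and begin at positions -149, -183 and -246 from the start.
Dusp1: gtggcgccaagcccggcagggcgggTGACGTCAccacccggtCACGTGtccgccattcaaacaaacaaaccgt
Slc25a25: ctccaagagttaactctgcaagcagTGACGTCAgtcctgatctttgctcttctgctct
Jund: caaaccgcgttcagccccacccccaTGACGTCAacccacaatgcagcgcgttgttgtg

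Clock genes were called in both directions. The core clock pairs the activators Clock and Bmal1 with the repressors Per and Cry, and Nr1d1, Dbp and Bhlhe41 are among its direct targets. Of 18 measured, 4 were called higher and 3 lower, against 0.225% and 0.682% of all genes. Nr1d1, the repressor Rev-erb alpha, read 7.67, 7.31 and 7.63 in CN-R and 7.5, 7.68, 8.09 and 8.13 in LP-R. Dbp, an activator that follows the clock, read 7.21 to 7.46 against 7.42, 7.42, 8.09 and 7.57, and Bhlhe41 read 8.95 to 9.23 against 9.21, 9.13, 9.65 and 9.51. In Nr1d1 and Bhlhe41 the highest arrays were LP-R replicates 3 and 4. In Dbp the difference of 0.27 came mainly from LP-R replicate 3 and was 0.11 without it. Per3 was called higher too, at 6.32 to 6.57 against 6.49 to 6.69. The genes called lower were Bhlhe40 (8.41 to 9.19 against 8.05 to 9.29), Nfil3, a repressor that opposes Dbp (8.10 to 8.51 against 7.89 to 8.12), and Usp2, a deubiquitinase with a daily rhythm (−0.22). Bmal1 and Per1 changed by −0.17 and −0.16 and were not called. In each list member named here the groups overlapped. The time of sampling of each rat was not given in the sources used here. E-boxes lay upstream of Bhlhe41 and Bhlhe40, at chr4:180569373-180569428 (minus strand) and chr4:143174205-143174260 (plus strand), and are shown because the pair of related repressors were called in opposite directions.
Bhlhe41: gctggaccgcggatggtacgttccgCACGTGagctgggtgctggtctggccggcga
Bhlhe40: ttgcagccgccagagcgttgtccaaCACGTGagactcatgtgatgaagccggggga

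Glucocorticoids rise in fasting and act through a nuclear receptor. Of 25 of their targets measured, 7 were called lower and 0 higher, and 16 of the 20 that vary had a lower mean (median −0.125). Across all genes, 0.682% were called lower and 0.225% higher, and 1179 of the 1755 that vary had a lower mean. The median of the targets was −0.064 without CN-R replicate 2 and −0.061 without LP-R replicate 4. Without CN-R replicates 1, 2 and 4 in turn 1, 0 and 1 were called lower, and without LP-R replicates 1 to 4 6, 7, 2 and 2. Besides Arrdc3, the genes called lower were Arrdc2, Sgk1, Errfi1, Cebpb, Cebpd and Cdkn1a. Cebpd and Cdkn1a are also on the list that the study drew from these arrays, so they are not independent evidence. Arrdc2 read 8.27, 8.62 and 7.81 in CN-R and 8.31, 8.26, 7.12 and 7.23 in LP-R, and Sgk1, a kinase that protects muscle mass, read 9.07, 8.13 and 8.15 against 7.74 to 8.35. Classical targets of the receptor were not called: Fkbp5 changed by 0.11 and Tsc22d3 by −0.15. Of 23 FoxO targets and atrophy genes, 2 were called lower, Cdkn1a and Gadd45a (−0.24, SE 0.19, and −0.03 with CN-R replicate 4 counted as restricted), and the 12 that vary had a median of −0.03. The ubiquitin ligases of muscle atrophy overlapped, Trim63 at 10.29 to 10.67 against 10.20 to 10.46 and Fbxo32 at 8.54 to 8.93 against 8.25 to 8.92.

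Growth signals gave calls in several lists. Over all genes, 0.225% were called higher and 0.682% lower, and 1179 of the 1755 that vary had a lower mean. In the list of IGF and insulin signalling, Irs2, an insulin receptor substrate, was the 1 of 24 called (lower). It read 9.07, 8.64 and 7.56 in CN-R and 8.73, 8.24, 7.72 and 7.16 in LP-R, a spread within each group wider than the difference of −0.46 (SE 0.53). Igf1 differed by −0.01 and Igf2 by −0.10. Of 25 genes of the myostatin, TGF-beta and BMP pathways, 2 were called lower, Tmem100 and Id3, and the 9 that vary all had a lower mean (median −0.10). Among 13 myogenic and satellite cell genes, Myod1, the master factor of muscle commitment (8.57, 8.18 and 8.23 against 7.92, 7.82, 8.26 and 7.67), Sdc4 and Cdkn1a were called lower. Myog changed by −0.09 and Myf6 by −0.07. Of 11 genes of embryonic or regenerating fibers, Nmrk2, a kinase of nicotinamide riboside that is induced in stressed muscle, was called higher (8.82 to 9.35 against 8.92 to 9.61) and Ankrd1, a stretch-induced protein, lower (7.69 to 8.51 against 7.44 to 8.34). The difference of Ankrd1 was 0.001 with CN-R replicate 4 counted as restricted. Gadd45a was the 1 of 16 genes of the neuromuscular junction and denervation called. Tmem100, Cdkn1a and Nmrk2 are also on the list that the study drew from these arrays, so their calls are not independent evidence.

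Genes of fuel metabolism were called in some lists and not in others. Many could not be judged, as their probe sets were nearly constant. Shares over all genes were 0.225% called higher and 0.682% called lower. Of 30 genes of glycolysis, glycogen and gluconeogenesis, Fbp2 was called higher and Ldhb, the lactate dehydrogenase subunit of oxidative tissue, lower (11.35 to 11.71 against 11.15 to 11.44), with a median of −0.01 over the 14 that vary. None of 29 genes of fatty acid oxidation and fasting, 39 of oxidative phosphorylation, 33 of the proteasome, 33 of the amino acid response and 27 of heat shock was called by rank products, and limma called none either. The varying members of these lists had medians of 0.01, 0.001, 0.02, −0.03 and −0.06. The brightest of each were Pdk4, the kinase that blocks glucose oxidation in fasting, Cox6a2, Psma6, Atf4 and Cryab, and the first 4 were nearly constant. Cryab, the small heat shock protein of the Z-disc, read 13.14 to 13.16 in CN-R and 13.05 to 13.11 in LP-R, with no overlap. A probe set that FARMS holds constant does not show that the transcript was equal. Of 27 genes of lipid synthesis and storage, Acaca, the acetyl-CoA carboxylase that makes malonyl-CoA (7.73 to 7.89 against 7.46 to 7.70, no overlap), and Retsat, a retinol saturase, were called lower. Retsat read 7.85, 9.69 and 8.24 in CN-R and 9.68, 7.67, 7.83 and 7.76 in LP-R, and its difference was 0.19 without CN-R replicate 2. Of 24 metabolic regulators, Slc25a25, Prkaa1 (1 of 3 probe sets, −0.25, and −0.08 with CN-R replicate 4 counted as restricted) and Esrrg, an orphan receptor of oxidative fibers, were called lower and Nrip1 higher. Esrrg read 8.87 to 8.99 in CN-R and 8.56 to 8.83 in LP-R without overlap. Of 29 genes of NAD and redox, Selenbp1 was called lower and Nmrk2 higher. Both, like Retsat and Slc25a25, are on the list that the study drew from these arrays, so their calls are not independent evidence.

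Among the sarcomere and calcium genes called, only Ankrd1 and Neb were not members of the slow fiber list. Shares over all genes were 0.225% called higher and 0.682% called lower. Of 31 Z-disc and cytoskeletal genes, Ankrd2 and Ankrd1 were called lower, and Neb both ways. Tmod4, which caps thin filaments, was not called, though it read 12.66 to 12.77 in CN-R and 12.55 to 12.60 in LP-R with no overlap. Of 25 genes of the sarcoplasmic reticulum and triad, Sln and Casq2 were called, both also members of the slow fiber list.

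**Figure D5:**
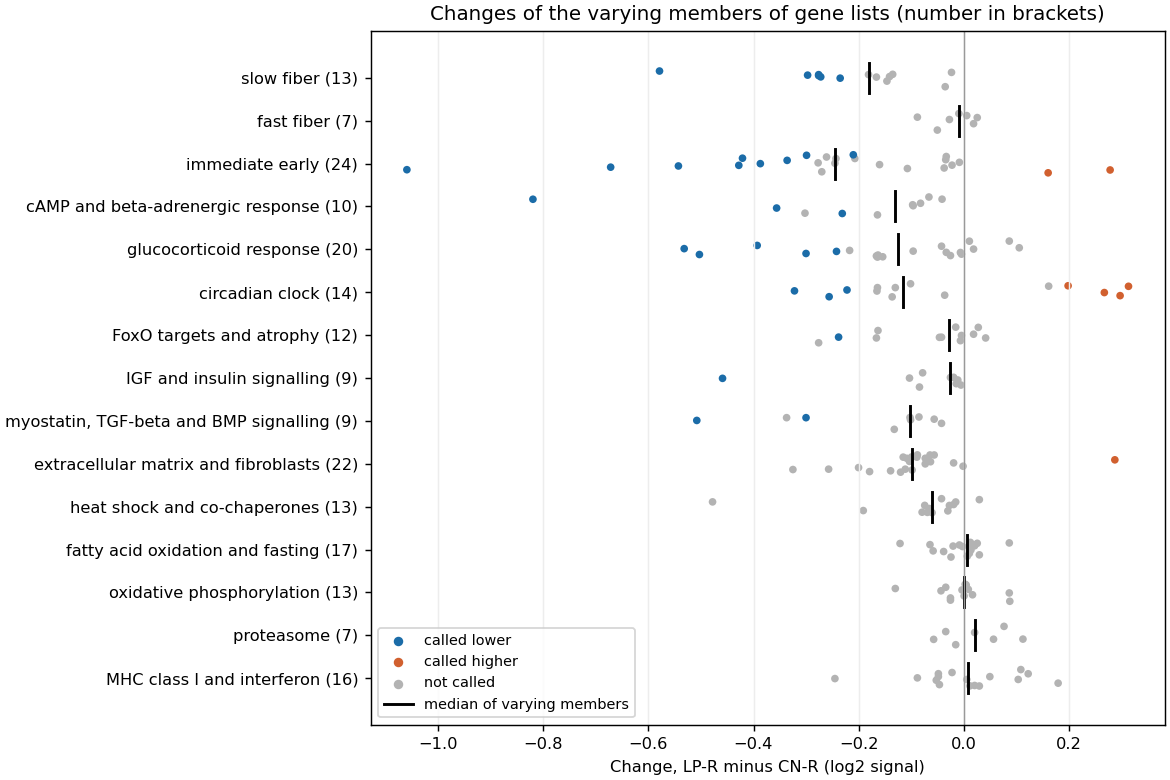
Changes of the varying members of 15 gene lists (horizontal axis, log2 signal, LP-R minus CN-R), with their number in brackets. Points are genes by their probe set of highest mean signal, coloured by the call of that probe set, and black lines mark medians, which ran from −0.24 for immediate early genes to 0.02 for the proteasome.

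Other cell types of the muscle were checked with marker lists, as changes in their share could move with the results. Their summed signal, on the log2 scale, was lower in LP-R for blood (12.16 to 12.66 in CN-R and 11.93 to 12.28 in LP-R), fibroblasts and matrix (14.64 to 14.78 against 14.51 to 14.75), nerve (10.64 to 10.78 against 10.62 to 10.69) and adipocytes (13.28 to 13.40 against 13.25 to 13.32), with overlap in each. For capillary endothelium it did not overlap, at 12.71 to 12.79 against 12.64 to 12.68. The ranges were close for macrophages and leukocytes (12.27 to 12.32 against 12.28 to 12.32) and smooth muscle (13.51 to 13.59 against 13.50 to 13.55). Of 35 matrix genes, 21 of the 22 that vary had a lower mean in LP-R, with a median of −0.10, and apart from Ogn 0 were called. Among all 1755 varying genes, 1179 had a lower mean. The median of the matrix genes was −0.05 without CN-R replicate 1. Hbb, a hemoglobin chain, was called lower at 11.43, 12.14 and 11.44 against 11.62, 11.47, 11.05 and 11.10, and so was Hba-a3. Cfd was the 1 of 12 adipocyte markers called, and Adipoq, which defines these cells, changed by −0.20. Of 28 markers of macrophages and leukocytes, Lyz2 was called higher (9.63 to 9.75 against 9.76 to 9.89, no overlap), while the complement genes C1qa and C1qc were lower without overlap (7.84 to 7.91 against 7.77 to 7.82, and 7.75 to 7.87 against 7.62 to 7.70) and not called. Tmem100 was the 1 of 20 endothelial genes called lower. No gene of 13 of smooth muscle or 12 of nerve was called by rank products or by limma. LP-R replicates 3 and 4, lowest for hemoglobin, were also lowest for 11 of the 13 varying slow fiber genes, and the part of blood or of fiber sampling in that result was not tested.

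A further list holds genes that the study names as altered both at the end of restriction and after rebound. Of these, 16 were matched on the array. The list was chosen on these arrays, so its calls are not independent evidence of its direction. The same holds wherever its members were counted in the other lists. Here 11 were called lower, 4 higher and 1, the cytoskeletal Palld (10.07 to 10.14 against 9.91 to 10.15), was not called. The study gives Palld as higher. A probe set assigned here to Palldl1, a gene of like name, was called higher (0.276, SE 0.07) without overlap. Whether the study counted it as Palld cannot be told here. Values of Selenbp1, Nr4a2, Nr4a1, Slc25a25, Tmem100, Pde4b, Crem, Cdkn1a, Retsat, Nmrk2, Ccn1 and LOC102553868 are given above. Maf, a factor of the large Maf family that acts in fast fibers, was the steadiest of the rest: it read 10.40, 10.35 and 10.53 in CN-R and 10.14 to 10.20 in LP-R, without overlap (−0.26, SE 0.05), though only 1 of its 3 probe sets was called, and the change was −0.13 and not called with CN-R replicate 4 counted as restricted. Ubap1l read 7.25 to 7.33 in CN-R and 8.26, 7.32, 7.66 and 7.68 in LP-R, a difference of 0.44 (SE 0.22). Cebpd was called by 1 of 3 probe sets, and its brightest read 8.36, 8.38 and 7.73 against 8.44, 8.20, 7.59 and 7.54. By the brightest probe set of each of the 16, the groups did not overlap for Selenbp1, Pde4b and Maf.

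By smallest p in limma the list of genes was of another kind. Among the 10 genes of smallest p whose groups did not overlap, 8 were nearly constant probe sets with changes of at most 2.4e-05, and the other 2 were Pde4d and Selenbp1. Among varying probe sets, small p values belonged to these and to Ube2s, a ubiquitin-conjugating enzyme of the cell cycle (9.71 to 9.77 against 9.51 to 9.58), Maf, and Zfp106, a zinc finger protein needed for muscle innervation (9.48 to 9.61 against 9.28 to 9.39), all lower in LP-R. Higher were Palldl1 (8.58 to 8.66 against 8.73 to 9.0), the histone H2az1 (11.49 to 11.54 against 11.57 to 11.65), the complement regulator Cd59b (11.32 to 11.37 against 11.40 to 11.51), S100a6, a calcium-binding protein (9.73 to 9.90 against 9.91 to 9.99), and Lyz2. These genes were chosen after their values were seen. With all 7 arrays and adjustment over all probe sets, none passed an adjusted p of 0.05 in limma. Selenbp1 passed over varying probe sets alone (limma adjusted p 0.0411), and Pde4d passed without LP-R replicate 3 (limma adjusted p 0.0049).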

How the data were processed

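By the labels, RNA from the gastrocnemius of each rat was measured on 1 GeneChip Rat Genome 230 2.0 array. The authors summarized the 3-month arrays on their own with FARMS in R (version not given in the sources used here) and deposited 1 log2 signal for each probe set. No further normalization was applied. Control probe sets (57) were left out. Of 31042 probe sets, 20826 carry 1 gene symbol in GEO's platform table and 436 several, and the latter were not named. A gene was called if at least 1 of its probe sets was called, and its value is that of the probe set with the highest mean signal unless another is named.

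Rank products ran in Python 3.11.15 (numpy 2.4.6) over all 12 pairs, with 100 permutations within each array and seed 1. Values were centred on each probe set's mean before permutation, a choice made after the data were seen. limma (3.58.1, R 4.3.3) used its default settings. Before use, each method was tested on simulated data that had these arrays' spread. Rank products recovered the changes but also called unchanged probe sets there, unless all were given 1 spread. SEs are limma's. Changes are LP-R minus CN-R. Members, gene lists and the naming rule were chosen with earlier results of these data known. Named were the 12 called genes of largest change in each direction, up to 4 called genes of each of 33 lists (or its brightest member), the study's list, and 5 genes of smallest limma p in each direction without overlap. Other list members were named after their values were seen. Since nothing but the labels ties arrays to rats, p-values measure the spread between these 7 arrays, and their number limits the precision. Alternatives were other normalizations, filters, thresholds and priors, array weights, a replicate block, a term for replicate numbers, another group for CN-R replicate 4, other choices of probe set and leaving out each array.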

Additional observations from a re-analysis of the deposited data

Results flagged for a closer look

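In 75 varying probe sets of named genes, the highest or lowest of the 4 LP-R arrays was tested for its distance from the rest, and 5 stood apart, where chance gives about 1 in 20. Selenbp1 read 7.99 in LP-R replicate 1 against 7.87 in the next, both well below the controls (8.81 to 9.31). Retsat read 9.68 in LP-R replicate 1 against 7.83 in the next, which put that rat at the level of CN-R replicate 2. Prkaa1 read 6.49 in LP-R replicate 2, S100a6 9.99 in LP-R replicate 4 and Pde4d 10.21 in LP-R replicate 3. The last is the array without which Pde4d passed limma.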

How the results depend on the processing

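Counts of calls were the least stable results. By rank products 64 probe sets were higher and 139 lower. The counts were 24 and 17 with CN-R replicate 4 counted as LP-R, 11 and 30 with the exact distribution over 24 pairings, 13 and 35 at a pfp of up to 0.01, 5 and 8 with a fold of at least 1.5, 5 and 2 over varying probe sets alone, 45 and 40 without dim probe sets, 107 and 52 with uncentred values (an alternative chosen after seeing the data), and 0 and 0 by limma in its place. Without 1 array the counts were 16 to 70 higher and 7 to 143 lower. Quantile normalization (64 and 137), median centring (64 and 139) and the term for replicate numbers (61 and 171) stayed within 1.5 times. limma called 0 probe sets, or 0 to 1 without 1 array (Pde4d without LP-R replicate 3) and 1 (Selenbp1, adjusted p 0.0411) over varying probe sets alone. The replicate block gave 47 higher and 131 lower over the 3 same-numbered pairs, and 0 by limma. Deviations of same-numbered arrays correlated at 0.04, 0.19 and 0.22, so the numbers were not taken to pair the rats.

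For 64 called named probe sets, 1005 values under alternatives gave the same call or a like value in 590, no call with the same direction in 403, a moved value in 2 and the opposite direction in 10. The reversals were LOC102553868 without CN-R replicate 2 (−0.378) or LP-R replicate 3 (−0.118) and with the block (−0.118), Retsat without CN-R replicate 2 (0.187), Ankrd1 (0.001), Crem (0.037) and Ccn1 (−0.082) with CN-R replicate 4 counted as LP-R, Tpm3 by its most variable probe set (0.194), and Ogn by its most variable probe set (−0.524) or their mean (−0.046). Without 1 array, LOC102553868 ranged from −0.378 to 1.322 and Retsat from −0.843 to 0.187. The causes were not tested. The comparison covers 3 and 4 rats, 1 fasted state and 1 muscle, and a probe set that FARMS holds constant gives no information on its gene.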

Other observations

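Interferon-stimulated genes differed widely between rats. Of 31 genes of MHC class I and the interferon response, 0 were called by rank products or limma, and the 16 that vary had a median change of 0.009, with 9 higher and 7 lower. The median was 0.118, with 1 member called higher, without CN-R replicate 1, and −0.077 without CN-R replicate 2. CN-R replicate 1 was the highest array for 11 of them and CN-R replicate 2 the lowest for 11. Irf7, the factor that amplifies the interferon response, read 8.19, 7.0 and 7.24 in CN-R and 7.65, 7.30, 7.26 and 8.13 in LP-R, so that 1 rat of each group was high. Mx1 read 7.02 in CN-R replicate 1 and 6.05 to 6.50 in the other arrays, and Ifit2 read 8.47 there and 7.19 to 7.80 in the others.

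Ifi27l2b, Slfn4 and Nmi, which interferon also induces and which are in none of the lists, were called higher by rank products. Ifi27l2b read 9.44, 7.96 and 8.33 in CN-R and 8.40 to 9.17 in LP-R, Slfn4 6.98, 6.4 and 6.45 against 6.66 to 7.22, and Nmi 6.59 to 6.89 against 6.80 to 7.33. Ubd, which interferon also induces, was called lower, at 7.74, 7.09 and 7.36 in CN-R and 6.72 to 7.51 in LP-R. All of these overlapped, and they were chosen after their values were seen.

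Of 13 varying heat shock genes, CN-R replicate 1 was the highest array for 3 and CN-R replicate 2 for 5. Among the former, chosen after their values were seen, Dnajb1 read 9.19 in CN-R replicate 1 and 7.19 to 8.14 elsewhere, and Hspa1a 11.09 there and 9.52 to 10.49 elsewhere. Cox5a, a subunit of cytochrome c oxidase, split the LP-R rats, at 6.79 and 7.10 in replicates 1 and 2 and 8.59 and 8.79 in replicates 3 and 4, with the controls between (7.42 to 7.91).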
